A study of Mus musculus with 16 samples.

Results

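The genes described here are those of the cornified envelope and the S100A family of calcium-binding proteins. They are all genes whose symbol begins with Sprr, Lce or S100a followed by a number, together with Ivl, Lor, Flg, Flg2, Hrnr, Rptn, Tchh, Crnn, Casp14, Tgm1, Tgm3 and Cdsn, with pseudogene symbols ending in -ps left out. The rule gave 62 genes of 89407 rows in the count table: 15 Sprr genes, 21 Lce genes, 14 S100a genes and the 12 genes listed by name. RNA-seq counts were analysed in 16 libraries. They came from 8 mice, with a library of mature and another of immature medullary thymic epithelial cells (mTEC) from each. Mature mTEC were sorted as CD45- EpCAM+ Ly51- UEA+ cells with high MHCII, and immature mTEC as the same cells with low MHCII. Each of 2 lines gave 2 tKO and 2 control mice. Rbfox1 tKO mice were Rbfox1 lox/lox with 1 Foxn1 allele carrying cre, and Rbfox2 tKO mice were Rbfox2 lox/lox with the same Foxn1 genotype. The control mice of each line carried the same lox/lox alleles and wildtype Foxn1, so that Cre and the loss of an Rbfox gene always went together. Foxn1 drives Cre in the thymic epithelium as a whole, so any effect on mTEC precursors is part of the comparison. The labels give the strain as C57BL/6, whereas the methods describe the Rbfox lines as kept on a mixed background of 129S2/Sv and C57BL/6J, with sex-matched littermates as controls. By the labels the mice were 4 to 6 weeks old and 10000 cells were sorted for each library.

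The cornified envelope is the tough protein shell that replaces the plasma membrane of a keratinocyte as it dies at the surface of the skin or another squamous epithelium. Involucrin, loricrin and the small proline-rich (SPRR) and late cornified envelope (LCE) proteins are joined into this shell by transglutaminases, while filaggrin and its relatives bundle keratin filaments beneath it. Most of these genes, and those of the S100A proteins, lie side by side in the epidermal differentiation complex. In the thymus, mature mTEC present proteins of peripheral tissues to developing T cells, and mTEC that have passed the Aire-expressing stage are known to take on features of keratinocytes. Of the 62 genes, 58 lay within 3.05 Mb at chr3:90511034-93564643 (GRCm38), and the other 4 were Tgm3 (chr2:130012349-130050399), Casp14 (chr10:78711991-78718294), Tgm1 (chr14:55700009-55713926) and Cdsn (chr17:35552128-35557180).

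Total counts were 3737884 to 4636367 in mature and 1506134 to 2430287 in immature libraries, so that depth and population went together. The 62 genes made up 0.286 to 0.369% of all counts in mature and 0.189 to 0.219% in immature libraries, and 59 to 62 of them had at least 1 count in a mature library against 37 to 52 in an immature one. Of 6 genes of mature mTEC 5 were called higher in mature libraries, and the 3 tested genes of immature mTEC were called lower. Aire was 1047 against 147 CPM (counts per 1000000 counts) in mature against immature control libraries and Krt5, a keratin of immature mTEC, 576 against 4064 CPM in the order of the sort, though Aire ranged from 18.8 to 299 CPM over the 8 immature libraries. Rbfox2 was 57.4 to 59.1 CPM in the mature control libraries of its line against 9.51 to 16.3 CPM in Rbfox2 tKO, and 92.4 to 105.0 CPM against 22.6 to 36.2 CPM in immature mTEC. Rbfox1 was 49.3 to 53.3 CPM against 30.2 to 34.7 CPM in mature mTEC of its line and 159.9 to 162.4 CPM against 146.0 to 149.4 CPM in immature mTEC, and was not called in either population, so the count over the whole gene checks the Rbfox1 tKO label only weakly.

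The Sprr2 genes, short tandem copies within the complex, differed between the 2 populations in opposite directions, as described below, and their promoters are shown for that reason. RefSeq promoters (GRCm38.p6, 250 bases before to 50 bases after the annotated start) were found for 57 of the 62 genes. In the sequences below, all 5′ to 3′ on the gene's own strand, capitals mark a TATA box (TATAAA), an AP-1 motif (TGANTCA) or an octamer (ATGCAAAT), each searched on both strands with no overlap between them. Sprr2i and Sprr2f stand for the Sprr2 genes higher in mature mTEC of control or tKO mice, Sprr2a1 for the gene that was lower there, and Sprr1b, Lor and S100a8 for the other branches of the set.
Sprr2i, chr3:92407741-92408040, plus strand: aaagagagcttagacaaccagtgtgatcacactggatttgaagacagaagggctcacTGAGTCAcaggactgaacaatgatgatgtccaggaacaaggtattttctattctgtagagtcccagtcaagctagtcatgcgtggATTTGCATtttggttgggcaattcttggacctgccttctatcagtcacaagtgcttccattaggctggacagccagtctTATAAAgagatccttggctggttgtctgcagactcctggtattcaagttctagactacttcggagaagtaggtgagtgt
Sprr2f, chr3:92364937-92365236, plus strand: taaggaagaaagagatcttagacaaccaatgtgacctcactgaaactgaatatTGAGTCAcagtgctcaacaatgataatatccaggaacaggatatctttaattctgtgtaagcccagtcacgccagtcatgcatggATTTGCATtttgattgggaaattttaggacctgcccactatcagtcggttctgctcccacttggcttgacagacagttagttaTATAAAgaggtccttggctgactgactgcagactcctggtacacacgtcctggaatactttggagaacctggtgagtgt
Sprr2a1, chr3:92215585-92215884, plus strand: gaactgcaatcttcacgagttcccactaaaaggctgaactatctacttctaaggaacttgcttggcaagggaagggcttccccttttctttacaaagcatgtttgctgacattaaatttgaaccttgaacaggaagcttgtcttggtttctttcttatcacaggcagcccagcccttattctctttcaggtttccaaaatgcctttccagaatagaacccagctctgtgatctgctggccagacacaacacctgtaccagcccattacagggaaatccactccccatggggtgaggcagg
Sprr1b, chr3:92438730-92439029, minus strand: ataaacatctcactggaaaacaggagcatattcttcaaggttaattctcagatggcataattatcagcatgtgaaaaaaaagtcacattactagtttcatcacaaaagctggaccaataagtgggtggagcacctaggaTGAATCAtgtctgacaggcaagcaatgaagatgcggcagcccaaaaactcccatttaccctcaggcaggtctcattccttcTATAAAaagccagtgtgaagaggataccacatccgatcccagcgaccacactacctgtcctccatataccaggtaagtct
Lor, chr3:92083093-92083392, minus strand: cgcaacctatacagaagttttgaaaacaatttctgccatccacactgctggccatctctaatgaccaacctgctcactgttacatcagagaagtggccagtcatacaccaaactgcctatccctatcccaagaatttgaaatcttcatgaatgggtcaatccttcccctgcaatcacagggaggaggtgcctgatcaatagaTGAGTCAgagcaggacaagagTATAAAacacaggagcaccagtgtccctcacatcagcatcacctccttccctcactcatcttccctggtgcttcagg
S100a8, chr3:90668821-90669120, plus strand: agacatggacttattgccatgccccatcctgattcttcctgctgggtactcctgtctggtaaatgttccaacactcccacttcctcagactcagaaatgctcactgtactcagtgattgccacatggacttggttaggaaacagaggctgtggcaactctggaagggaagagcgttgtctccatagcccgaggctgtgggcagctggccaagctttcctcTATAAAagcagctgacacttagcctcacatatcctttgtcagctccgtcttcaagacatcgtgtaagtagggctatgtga

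All 7 of the matched Sprr2 genes outside the Sprr2a group (Sprr2b, Sprr2d, Sprr2e, Sprr2f, Sprr2h, Sprr2i and Sprr2k) held the 3 motifs, in the same order and at nearly the same places. The TATA box began 29 bases before the start in each of them, the octamer 108 to 112 bases and the AP-1 motif 182 to 198 bases before it, Sprr2k holding 2 AP-1 motifs. Only 22 of 27025 genes with a promoter held all 3 motifs. Singly, the TATA box was found in 15.7% of all genes and 43.9% of the matched members, the AP-1 motif in 8.97% and 29.8%, and the octamer in 1.97% and 12.3%. Sprr2a1, Sprr2a2 and Sprr2a3 held none of them in this window, and the Sprr2a1 and Sprr2a2 windows shared 100% of their 12-base words. Annotated exons of the Sprr2a genes held 2883 to 3003 bases, against 609 to 784 in the 7 other matched Sprr2 genes. Whether the windows of the 2 groups lie at like places was not tested. Sprr1b and Lor held a TATA box and an AP-1 motif without the octamer, S100a8 held a TATA box alone, and none of the 20 matched Lce promoters held an AP-1 motif or an octamer. The grainyhead motif (AACNGGTT) was found in S100a3, S100a9 and Rptn alone among the members, against 2.35% of all genes. The RefSeq start of Sprr2a1 was 36 bases downstream of the GENCODE start, and that of S100a8 was 93 bases downstream of the nearer of its 2 GENCODE starts. Of the 7 Sprr2 genes with all 3 motifs, Sprr2i alone was called higher in mature mTEC of both control and tKO mice, as described below. Sprr2f and Sprr2h were called higher in tKO mice alone. Sprr2b, with too few counts to be tested, was 1.16 against 1.75 CPM in mature against immature control libraries and 1.39 against 1.72 CPM in tKO mice. The immature means rested on 1 library of each genotype, with 9 of 13 counts in control and 8 of 11 in tKO mice. Each mature library held 3 to 8 counts, so no direction can be read from Sprr2b. Whether the motifs go with direction was not tested. A match of letters is a description and does not show that a factor bound there.

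Levels differed by several orders between members. Per kb of exon in control mice, S100a11 was the highest member in both populations, with 669 ± 87.7 CPM per kb (mean ± SD, n = 4 mice) in mature and 943 ± 154 in immature mTEC. In mature mTEC it was followed by S100a14 with 517 ± 41.5, S100a16 with 333 ± 30.8 and Sprr1a, a small proline-rich envelope protein, with 196 ± 23.3 CPM per kb. S100a8 and S100a9, the 2 subunits of calprotectin, came next with 145 ± 2.25 and 137 ± 6.72 CPM per kb, close to each other. That likeness holds for the union of all exons alone, since per kb of the longest transcript S100a8 was 202 and S100a9 137, with S100a8 above Sprr1a. S100a1, S100a13, S100a6 and S100a10 completed the 10 highest. In immature mTEC, S100a16 (172 ± 15.2), S100a10 (139.6 ± 24.1), Sprr1a (121 ± 27.0) and S100a14 (118 ± 36.8) followed S100a11. Among these 4 genes the ranges of mean ± SD of neighbours in the order overlapped. Lor, which makes up most of the envelope of skin, and Rptn stood among the 10 highest in place of S100a8 and S100a9. Here too the order depended on the length used, as per kb of the longest transcript S100a10 (247), S100a16 (247) and S100a6 (145) followed S100a11, ahead of S100a14 and Sprr1a, though the 10 highest genes of each population were the same. At the other end, the highest Lce gene reached a mean of 6.87 CPM over the 8 mature libraries, against 923 CPM for S100a14. S100a5, Sprr2k and Lce3e had no count in any of the 8 immature libraries.

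**Figure D1:**
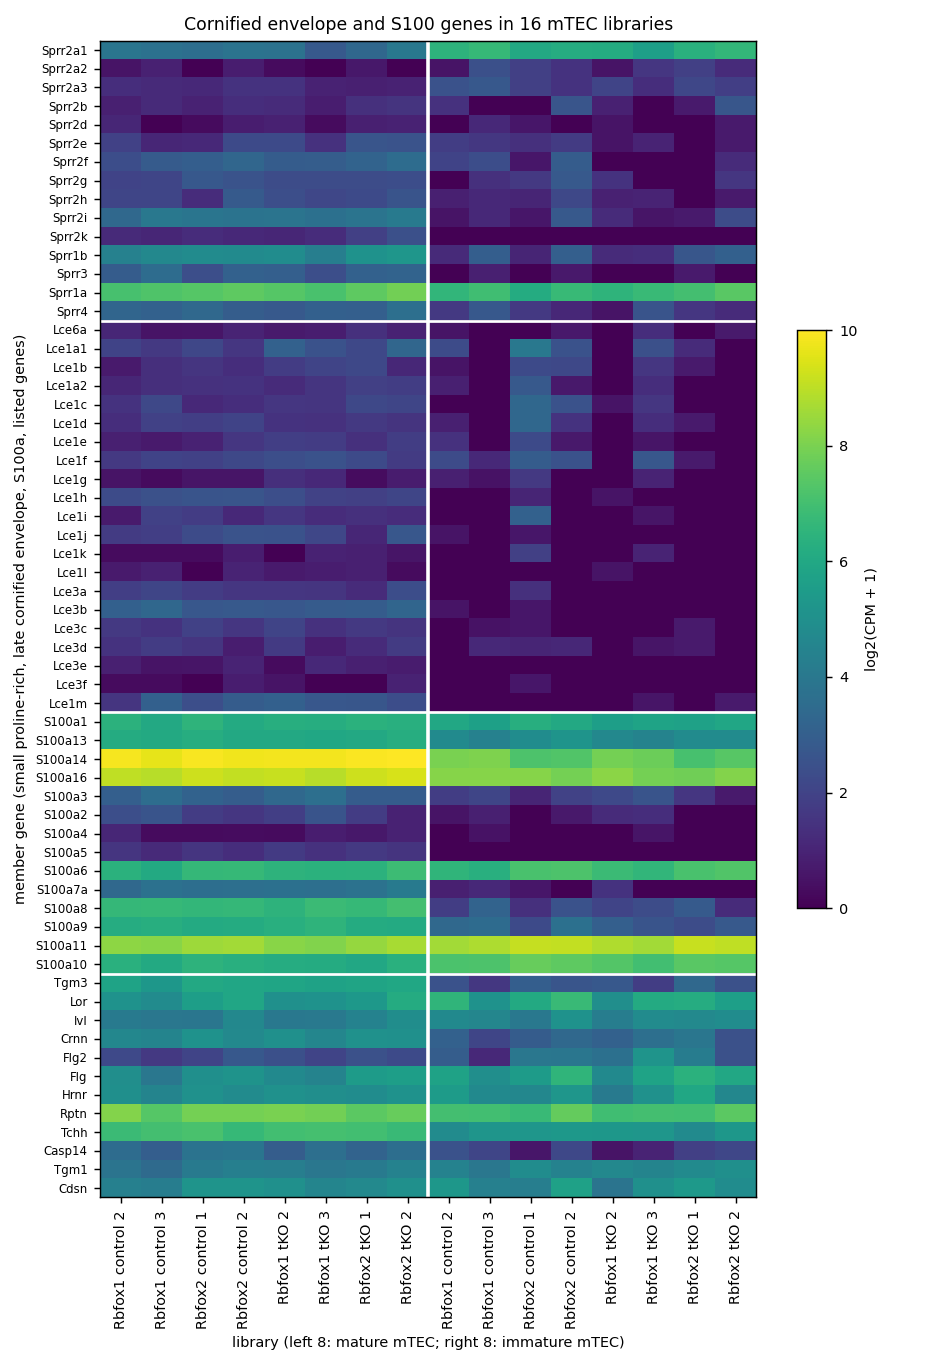
Levels of the 62 genes as log2(CPM + 1) by colour, with genes in rows (from top to bottom the Sprr, Lce and S100a genes and those listed by name, each in chromosome order) and the 16 libraries in columns, mature on the left and immature on the right. S100a14 and S100a16 stand out in mature libraries, Sprr2a1 is brighter in all 8 immature libraries, and most Lce genes are dark in immature libraries other than Rbfox2 control 1.

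Mature and immature mTEC were compared to ask how these genes differ between the 2 populations. In control mice, 36 of the 62 genes passed the filter on low counts, 16 were called higher and 3 lower in mature mTEC and 17 were not called. Over all 15357 rows tested, 23.5% were called higher and 10.8% lower. In tKO mice, which share no library with the control mice, 36 genes were tested, 21 were called higher and 3 lower, against 23.0% and 11.5% of 15189 rows. Of the genes called, 15 were higher and 2 were lower in both comparisons, which is 17 of the 19 called in control mice and 17 of the 24 called in tKO mice. The same overlap was not counted over all rows, so it cannot be read as particular to these genes. The 15 were S100a3, S100a7a, S100a8, S100a9, S100a13, S100a14, Sprr1b, Sprr2i, Sprr3, Sprr4, Lce3b, Casp14, Crnn, Tchh and Tgm3, and the 2 were Sprr2a1 and S100a10. A gene was called at an adjusted p under 0.05 and a fold change over 2. A member could pass the filter through the mature libraries alone, which were also deeper, so the counts over tested members are descriptions. In bulk samples, more cells of a type and more RNA per cell cannot be told apart. Only 17 of the members had at least 10 counts in every control library, and 5 of those were called when the fit was restricted to such rows, against 6 of 17 in tKO mice. After thinning every library to the smallest total, 12 members were called in control mice and 17 in tKO mice.

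**Figure D2:**
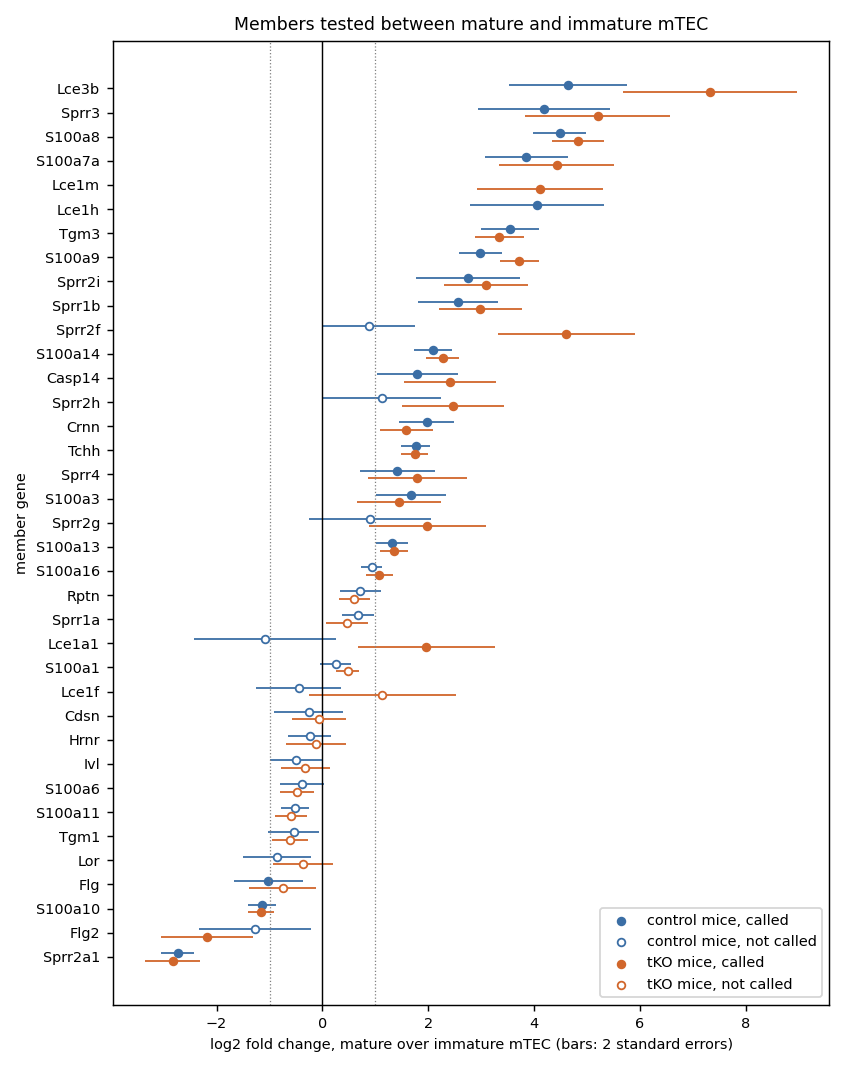
Log2 fold change of mature over immature mTEC for each of the 37 members tested in control mice (blue) or tKO mice (orange), with bars of 2 standard errors, filled points for called genes and dotted lines at a fold change of 2. Fold changes run from -2.74 ± 0.16 (± standard error) for Sprr2a1 to 4.65 ± 0.56 for Lce3b in control mice.

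Among the SPRR genes, which encode short proline-rich proteins that are cross-linked into the envelope, 9 of 15 were tested in control mice, 4 were called higher (Sprr1b, Sprr2i, Sprr3 and Sprr4), Sprr2a1 was called lower, and 4 were not called. Values are given below in CPM with the 2 mice of the Rbfox1 line first and those of the Rbfox2 line second, and fold changes on the log2 scale with their standard error. Sprr1b was 20.3, 24.3, 27.7 and 26.6 CPM in mature control libraries and 1.28, 6.95, 1.08 and 7.06 CPM in immature ones. Every mature library was above every immature one, and the fold change was 2.57 ± 0.38, adjusted p = 6.62e-05 in control and 2.99 ± 0.39, adjusted p = 1.43e-05 in tKO mice. Sprr2i, whose promoter is shown above, was 9.28, 14.9, 13.6 and 12.9 CPM in mature and 0.426, 1.23, 0.538 and 5.88 CPM in immature control libraries. The immature library of Rbfox2 control 2 was the highest of the immature ones for Sprr2i and still lay below all mature ones (2.75 ± 0.49, adjusted p = 3.33e-04 in control and 3.09 ± 0.40, adjusted p = 1.24e-05 in tKO mice).

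Sprr3, the SPRR protein best known from the oesophagus, had counts of 30, 49, 18 and 31 in mature and 0, 2, 0 and 1 in immature control libraries. With 3 counts in all on the immature side, the ratio of summed counts was 20.7 per unit of depth, with an exact 95% interval of 6.94 to 102 that covers counting error only. Its fold change was 4.19 ± 0.62, adjusted p = 7.31e-05 in control and 5.20 ± 0.68, adjusted p = 1.44e-05 in tKO mice. Sprr4 changed less (1.42 ± 0.36, adjusted p = 0.00391 in control and 1.79 ± 0.47, adjusted p = 0.00426 in tKO mice), and Sprr1a, the most abundant SPRR gene, differed by less than 2-fold (0.67 ± 0.15, adjusted p = 0.00171 in control and 0.47 ± 0.20, adjusted p = 0.054 in tKO mice).

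Sprr2a1 ran the other way. It was 13.8, 12.3, 11.2 and 12.9 CPM in mature and 88.2, 103, 65.2 and 72.4 CPM in immature control libraries, and 12.7, 5.99, 9.24 and 14.9 CPM against 70.1, 48.5, 79.9 and 98.9 CPM in tKO mice. The groups did not overlap and Sprr2a1 was lower in the mature library of each of the 8 mice, with a fold change of -2.74 ± 0.16, adjusted p = 3.27e-08 in control and -2.83 ± 0.26, adjusted p = 4.62e-07 in tKO mice. Its exons overlap those of Sprr2a2, with which it shares 96.9% of its 31-base words, so reads of the 2 genes cannot be told apart with certainty. Summed over Sprr2a1, Sprr2a2 and Sprr2a3, the level was 6.95 to 15.8 CPM in the 8 mature libraries and 52.0 to 113.7 CPM in the 8 immature ones. Within the Sprr2 genes the populations therefore differed in opposite directions, with Sprr2i called higher and Sprr2a1 called lower in mature mTEC of control and of tKO mice. The other Sprr2 genes were near the limit of detection in immature mTEC. Sprr2f, Sprr2g and Sprr2h were called in tKO mice (4.61 ± 0.65, adjusted p = 2.64e-05, then 1.99 ± 0.56, adjusted p = 0.00673 and 2.47 ± 0.48, adjusted p = 5.00e-04) and not in control mice (0.88 ± 0.43, adjusted p = 0.0969, then 0.91 ± 0.58, adjusted p = 0.191 and 1.12 ± 0.56, adjusted p = 0.0977). Without the immature library of Rbfox2 control 2 all 3 passed in control mice (fold changes of 1.24, 1.74 and 1.67, adjusted p = 0.0335, 0.0232 and 0.0324). Sprr2h also passed in control mice with mouse as a block (adjusted p = 0.0448).

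The LCE genes encode envelope proteins made late in differentiation. They were scarce, and only 4 of 21 were tested in each comparison. Lce3b, of the subgroup known from injured skin, had counts of 34, 42, 23 and 24 in mature and 1, 0, 1 and 0 in immature control libraries, with a ratio of summed counts of 29.9 per unit of depth (exact 95% interval 8.10 to 249.6). In tKO mice Lce3b had 25, 26, 24 and 37 counts in mature libraries and 0 in all 4 immature ones. Set against a floor of 3 counts over those 4 libraries, it was at least 15.96-fold higher in mature mTEC, and it was called in both comparisons (adjusted p = 1.18e-05 in control and adjusted p = 1.46e-05 in tKO mice). Lce1h was called in control mice (4.06 ± 0.64, adjusted p = 1.12e-04), with counts of 18, 21, 21 and 21 in mature and 0, 0, 2 and 0 in immature libraries. Without Rbfox1 control mature 3, or without Rbfox2 control mature 1 or 2, Lce1h no longer passed the filter. Lce1m was called in tKO mice (4.11 ± 0.59, adjusted p = 3.55e-05), with counts of 33, 23, 20 and 18 against 0, 1, 0 and 1. Lce3a, Lce3c and Lce1j, not tested, had 4 to 24 counts in each mature library and 0 to 3 in each immature one.

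The other LCE1 genes varied widely between mice within immature mTEC. In the 8 immature libraries the 14 Lce1 genes together ranged from 0.664 to 67.3 CPM, with a median of 8.07, whereas in mature libraries they ranged from 21.2 to 42.5 CPM. The highest was the immature library of Rbfox2 control 1. It held 28 counts of Lce1a1, 17 of Lce1c, 17 of Lce1d, 14 of Lce1i and 12 of Lce1f, but 2 of Lce1h, 1 of Lce1j and 0 of Lce1m. Leaving out those 3, which were near 0 in every immature library, the remaining 11 Lce1 genes had 122 counts there, 40 in Rbfox1 tKO 3, 35 in Rbfox2 control 2, 29 in Rbfox1 control 2 and 5 or fewer in the other 4. The libraries with 29 or more such counts came from both lines and both genotypes. This spread carried into the tests. Lce1a1 was -1.09 ± 0.67 (adjusted p = 0.182) in control mice, -0.05 without Rbfox2 control immature 1, and passed as lower without Rbfox1 control immature 3 (-1.58, adjusted p = 0.00941). It was called in tKO mice (1.96 ± 0.65, adjusted p = 0.0177), which was lost without Rbfox1 tKO immature 2 (1.45, adjusted p = 0.0550). Lce1f was not called in control mice (-0.45 ± 0.40) or tKO mice (1.13 ± 0.70), and was 3.98 in tKO mice without Rbfox1 tKO immature 3 (adjusted p = 0.000970). Many LCE1 genes share sequence, so counts may be split between copies.

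Of the 14 S100a genes, 11 were tested in each comparison, 6 were called higher in control mice and 7 in tKO mice, and S100a10 was called lower in both. S100a8 and S100a9 form calprotectin, an antimicrobial complex that squamous epithelia make and that neutrophils store in quantity. S100a8 was 102, 102, 98.8 and 100.4 CPM in mature and 2.56, 8.18, 1.62 and 4.71 CPM in immature control libraries, and 86.3, 111, 102 and 129.9 CPM against 3.13, 4.00, 6.04 and 1.33 CPM in tKO mice. It was 22.3-fold higher in control and 28.5-fold higher in tKO mice (log2 4.48 ± 0.25, adjusted p = 2.37e-08, and 4.83 ± 0.25, adjusted p = 2.04e-09). S100a9 was 71.7, 76.0, 67.7 and 70.1 CPM against 9.37, 10.2, 3.77 and 11.8 CPM in control mice (2.98 ± 0.20, adjusted p = 9.91e-08), and 79.0, 90.1, 71.2 and 69.1 CPM against 7.14, 5.0, 4.03 and 5.98 CPM in tKO mice (3.72 ± 0.18, adjusted p = 1.81e-09).

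Markers of blood cells moved with these 2 genes. Of 10 neutrophil genes, 5 were tested in control mice and 4 were called higher in mature mTEC (Mpo, Ly6g, Ngp and Camp). In tKO mice the same 4 were called higher and Ltf, lactoferrin, was called lower (-1.36 ± 0.38, adjusted p = 0.0063, against -0.47 ± 0.27 and adjusted p = 0.15 in control mice). Mpo, myeloperoxidase, was 96.3 against 2.67 CPM and Ly6g 41.2 against 1.03 CPM in mature against immature control libraries, while Elane was 0.437 and Retnlg 0.868 CPM in mature and both at 0 in all 8 immature libraries. The neutrophil list summed to 223.2 to 265.6 CPM in mature and 46.0 to 268.9 CPM in immature libraries, the latter largely Ltf (64.8 against 89.4 CPM in control mice). Of 9 macrophage and dendritic cell genes, 7 of 8 tested were called higher, and their sum was 384.2 to 479.7 CPM against 53.6 to 82.6 CPM. Ptprc, which encodes the CD45 that the sort gated out, was 11.3 against 2.52 CPM, and the 8 thymocyte and B cell genes together were 56.3 to 69.3 CPM against 5.37 to 23.7 CPM. The part of such cells in the S100a8 and S100a9 values was not tested.

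S100a14, the most abundant of the called members in mature mTEC, was 922, 800.3, 969 and 878 CPM in mature and 254, 265, 145 and 154 CPM in immature control libraries. It was 4.27-fold higher in control and 4.83-fold higher in tKO mice (2.096 ± 0.18, adjusted p = 6.11e-07, and 2.27 ± 0.15, adjusted p = 2.53e-08). S100a16, its neighbour on chromosome 3, differed by close to 2-fold and was called in tKO mice alone (1.08 ± 0.13, adjusted p = 5.84e-06, against 0.93 ± 0.10, adjusted p = 3.47e-06 in control mice), the difference between the 2 comparisons not being called. S100a7a, the mouse relative of psoriasin, had 43, 56, 47 and 46 counts in mature and 2, 3, 1 and 0 in immature control libraries (3.86 ± 0.40, adjusted p = 3.16e-06, and 4.43 ± 0.54, adjusted p = 7.50e-06 in tKO mice). S100a13 was also higher (1.31 ± 0.15, adjusted p = 7.61e-06 in control and 1.36 ± 0.13, adjusted p = 8.49e-07 in tKO mice). S100a3 was higher as well (1.67 ± 0.33, adjusted p = 6.82e-04 and 1.45 ± 0.40, adjusted p = 0.00584), but its exons overlap the gene Gm42674, called in the same direction (1.79 ± 0.32), so their reads may be shared.

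S100a10, which pairs with annexin A2 at the cell membrane, was 80.5, 67.0, 86.3 and 77.8 CPM in mature and 141, 148, 202 and 185 CPM in immature control libraries. It was lower in mature mTEC of each mouse (-1.14 ± 0.13, adjusted p = 7.94e-06 in control and -1.17 ± 0.12, adjusted p = 1.77e-06 in tKO mice), and its fold change in control mice fell just short of 2 after thinning (-0.95). S100a11 and S100a6 had smaller fold changes, -0.52 ± 0.13, adjusted p = 0.00425 and -0.38 ± 0.21, adjusted p = 0.124 in control mice and -0.59 ± 0.15, adjusted p = 0.0035 and -0.48 ± 0.16, adjusted p = 0.0173 in tKO mice. Fibroblast genes were also lower in mature mTEC, 5 of the 7 listed being called lower and Pdgfrb higher in both comparisons, with sums of 413.3 to 727.8 CPM in mature and 355.4 to 2719 CPM in immature libraries, and their part in the S100a10 values was not tested. Genes of S100 partners were lower as well. Of 6 such genes, 5 were called lower in mature mTEC in both comparisons, with a list median of -1.48 in control and -1.75 in tKO mice, against 0.01 and 0.03 over all rows tested. Anxa2 was 202 against 1119 CPM (-2.50 ± 0.16, adjusted p = 5.53e-08), Anxa1 228 against 625 CPM (-1.48 ± 0.17, adjusted p = 8.76e-06) and the scaffold gene Ahnak 195 against 429 CPM (-1.16 ± 0.15, adjusted p = 2.15e-05) in mature against immature control libraries. Ager, a receptor for S100 proteins, was called higher in control mice alone (1.12 ± 0.24, adjusted p = 0.0014, and -0.12 ± 0.37 in tKO mice), and no row was called in the test of that difference.

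The 12 genes listed by name were all tested. Tgm3, Casp14, Tchh and Crnn were called higher in mature mTEC in both comparisons, which is 33.3% of the 12. Flg in control mice and Flg2 in tKO mice were called lower, 8.33% in each comparison. Over all rows tested, 23.5% were called higher and 10.8% lower in control mice, and 23.0% and 11.5% in tKO mice. Tgm3, a transglutaminase that pre-assembles SPRR proteins and trichohyalin, was 55.3, 38.5, 65.3 and 59.9 CPM in mature and 4.69, 2.04, 7.0 and 5.29 CPM in immature control libraries (11.6-fold, log2 3.54 ± 0.27, adjusted p = 2.88e-07, and 3.34 ± 0.23, adjusted p = 3.14e-08 in tKO mice). Its substrate trichohyalin (Tchh), a protein of the hair root sheath and tongue, was 112, 129, 139 and 102 CPM against 27.7, 36.4, 37.2 and 39.4 CPM (1.76 ± 0.14, adjusted p = 2.90e-07, and 1.74 ± 0.13, adjusted p = 4.74e-08 in tKO mice). Crnn, cornulin of the oesophagus, was 24.0, 22.1, 33.5 and 25.1 CPM against 7.67, 3.27, 6.46 and 9.41 CPM (1.97 ± 0.26, adjusted p = 2.94e-05, and 1.59 ± 0.25, adjusted p = 6.73e-05 in tKO mice). In these 3 genes, and in Casp14, every mature library lay above every immature one. How many of all rows did so was not counted. Casp14, the caspase that acts in cornification, had 49, 32, 54 and 55 counts in mature and 11, 8, 1 and 6 in immature control libraries (1.79 ± 0.39, adjusted p = 0.00134, and 2.41 ± 0.44, adjusted p = 2.72e-04 in tKO mice).

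Ivl, Lor, Flg and Flg2, which encode structural proteins of the epidermis, were not called higher in either comparison. Ivl, involucrin, was 16.2, 14.7, 14.3 and 24.3 CPM in mature and 25.6, 22.9, 15.1 and 33.5 CPM in immature control libraries, with overlapping groups (-0.50 ± 0.25, adjusted p = 0.0936, and -0.32 ± 0.23, adjusted p = 0.247 in tKO mice). Lor, loricrin, was 33.5, 27.4, 48.1 and 59.9 CPM against 92.5, 33.5, 65.7 and 109 CPM (-0.85 ± 0.32, adjusted p = 0.034, and -0.37 ± 0.28, adjusted p = 0.281 in tKO mice), and passed a fold change of 2 as lower in control mice without Rbfox1 control immature 3 (-1.13, adjusted p = 0.00124) or Rbfox2 control mature 2 (-1.07, adjusted p = 0.0186). The spread between immature libraries was wide in Lor, from 33.5 CPM in Rbfox1 control 3 to 109 CPM in Rbfox2 control 2. Flg, filaggrin, was 30.0, 14.5, 30.6 and 34.0 CPM against 52.8, 29.9, 44.2 and 93.0 CPM and was lower in the mature library of each of the 8 mice and called lower at a fold change only just over 2 (-1.02 ± 0.32, adjusted p = 0.0152, and -0.75 ± 0.31, adjusted p = 0.0527 in tKO mice). The fold change fell just below 2 with DESeq2 (-0.998, adjusted p = 0.00804), with DESeq2's size factors (-0.98, adjusted p = 0.0195) and with library totals (-0.96, adjusted p = 0.0195), and further without Rbfox1 control mature 3 (-0.80) or Rbfox2 control immature 2 (-0.67). In tKO mice Flg passed as lower without Rbfox1 tKO immature 2 (-1.02, adjusted p = 0.00355). Flg2, the second filaggrin gene, was called lower in tKO mice (-2.19 ± 0.43, adjusted p = 5.73e-04) and missed the threshold in control mice (-1.28 ± 0.53, adjusted p = 0.0534), where it passed with mouse as a block (-1.23, adjusted p = 0.0113), with line as a covariate (-1.23, adjusted p = 0.0143), with DESeq2 (-1.30, adjusted p = 0.0430), without Rbfox1 control immature 3 (-1.71, adjusted p = 0.00138) and without Rbfox2 control mature 2 (-1.56, adjusted p = 0.0420).

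Hrnr, hornerin, and Cdsn, the corneodesmosin that holds corneocytes together, differed little between the populations. Hrnr was -0.24 ± 0.20 in control and -0.12 ± 0.29 in tKO mice, Cdsn -0.26 ± 0.33 and -0.07 ± 0.25, and the sign of both turned when single libraries were left out, with values of 0.03 to 0.32. Tgm1, the transglutaminase of the epidermal envelope, was -0.54 ± 0.24, adjusted p = 0.0672 in control and -0.61 ± 0.17, adjusted p = 0.00738 in tKO mice, with less CPM in the mature than the immature library of each of the 8 mice. Rptn, repetin, was 286, 163, 242 and 242 CPM in mature and 127, 126, 109 and 196 CPM in immature control libraries, a difference below 2-fold (0.72 ± 0.19, adjusted p = 0.00621, and 0.61 ± 0.14, adjusted p = 0.00218 in tKO mice). The 2 transglutaminases thus stood apart, Tgm3 called higher in mature mTEC and Tgm1 not called. Exons of Tgm1 overlap Gm49067 and those of Rptn overlap Gm37857.

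**Figure D3:**
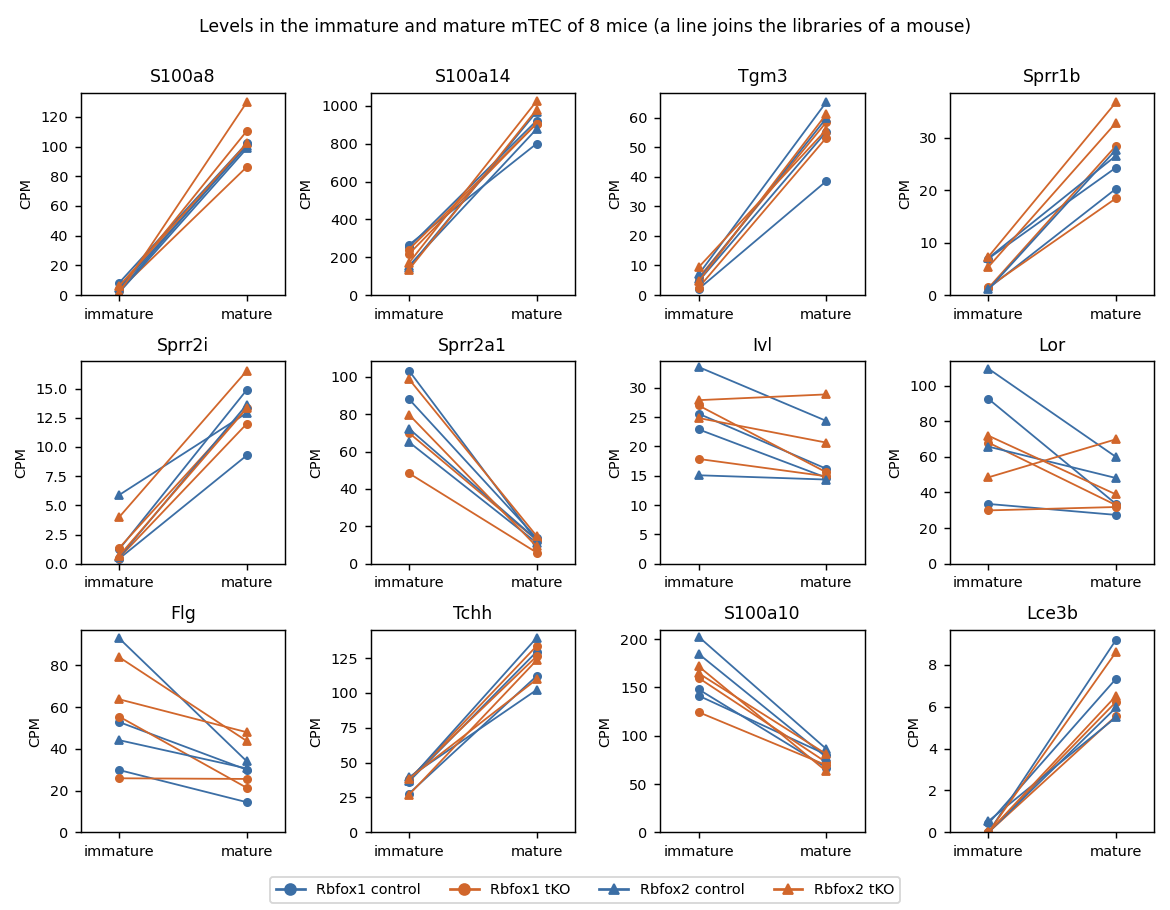
CPM of 12 members in the immature and mature library of each of the 8 mice, joined by a line, with control mice in blue, tKO mice in orange, the Rbfox1 line as circles and the Rbfox2 line as triangles, each panel on its own scale from 0. S100a8, S100a14, Tgm3, Sprr1b, Sprr2i, Tchh and Lce3b are higher in the mature library of each mouse. Sprr2a1, S100a10 and Flg are lower in each, and the lines of Ivl and Lor run both ways or cross.

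The label under which these genes were gathered, a keratinocyte-like programme of mTEC past the Aire stage, was checked against other genes of such cells. Of 8 keratinocyte-like markers, 7 were tested and Krt77 alone was called higher in mature mTEC (237 against 79.7 CPM, 1.54 ± 0.17, adjusted p = 7.24e-06 in control mice), with a list median of 0.59 in control and 0.43 in tKO mice. Krt10 was 289 against 174 CPM, Spink5 269 against 248 CPM, Dmkn 218 against 232 CPM and Krt1 78.4 against 49.4 CPM in mature against immature control libraries. Their sum ranged from 692.6 to 1583 CPM over mature and from 659.6 to 1302 CPM over immature libraries, so these markers were present in both populations and their sums overlapped. Cells past the Aire stage are known to carry less MHCII, and the sort does not separate them from immature cells within the low gate. The set is therefore called here by its genes and not as a programme of one cell type.

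Most other genes of the envelope and its surroundings were not called between the 2 populations. The counts below stand beside 23.5% of all rows called higher and 10.8% lower in control mice, and 23.0% and 11.5% in tKO mice. Of 15 further envelope genes, 13 were tested and Tgm5, another transglutaminase, was the only one called in either comparison (42.4 against 4.37 CPM, 3.19 ± 0.24, adjusted p = 2.33e-07 in control mice), with a list median of -0.05 in control and 0.00 in tKO mice. Asprv1, the protease of profilaggrin, was 239 against 178 CPM, Cst6 99.4 against 122 CPM and the plakin gene Ppl 75.3 against 70.8 CPM. Of 11 genes of the lipid barrier, Alox12b (2.32 ± 0.21, adjusted p = 9.29e-07) and Cyp4f39 (2.34 ± 0.28, adjusted p = 1.29e-05) were called higher in both comparisons, none was called lower, and the median was 0.67 in control and 0.51 in tKO mice. Of 12 desmosome genes, Dsg1b was called higher (2.14 ± 0.27, adjusted p = 1.89e-05) and Dsc2 and Dsc3 lower (-1.24 ± 0.09 and -2.16 ± 0.15), in both comparisons. Dsp, the most abundant, was 772 against 1445 CPM (-0.93 ± 0.12, adjusted p = 1.83e-05).

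Of 16 transcription factor genes linked to epidermal differentiation, the same 5 were called higher in control and in tKO mice, a share not far above the 23.5% and 23.0% of all rows tested. They were Ovol1 (2.27 ± 0.18), Elf5 (2.25 ± 0.34), Grhl3 (2.19 ± 0.17), Hopx (1.496 ± 0.19) and Vdr, the vitamin D receptor (1.27 ± 0.10, adjusted p = 3.78e-07). Trp63, the master regulator of stratified epithelia, was 102 against 407 CPM and was called lower in both (-2.02 ± 0.12, adjusted p = 4.67e-08 in control mice). Klf4 was 101 against 109 CPM and not called. The list median was 0.45 in control and 0.24 in tKO mice. Of the 18 other genes annotated as protein-coding within the complex on chromosome 3, Sprr2j-ps among them, 11 were tested in control mice and Prr9, Gm4858, Tchhl1 and Gm42674 were called higher. In tKO mice 10 were tested, without Tchhl1. Prr9, Gm4858 and Gm42674 were again called higher, and Gm9774 was called lower (-1.36 ± 0.22, adjusted p = 1.02e-04). Prr9 had no count in the 4 immature control libraries and 9.16 CPM in mature ones, while Crct1 was 19.2 against 18.9 CPM, so the neighbours were not alike either.

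tKO and control mice were compared next, to ask whether loss of an RBFOX protein changes these genes. No member that passed the filter was called in any of these comparisons by edgeR or by DESeq2. With no filter, edgeR called Flg2 and Sprr2f in immature mTEC of the Rbfox1 line and over both lines, and Lce1a1 in mature mTEC over both lines. In immature mTEC of the Rbfox2 line it called Lce1a1, Lce1c and Lce1f, all lower in tKO mice. There the 14 Lce1 genes together had 125 counts in Rbfox2 control 1, 35 in Rbfox2 control 2, and 5 and 1 in the tKO libraries. In mature mTEC, 49 members were tested for each line, and 5 had an unadjusted p under 0.05 in the Rbfox1 comparison and 5 in the Rbfox2 comparison, with 0.0166% and 0.0277% of all rows called and 3.35% and 5.34% of all rows at that unadjusted p. In immature mTEC 26 were tested and 3 reached that p in each line, with 0.0306% and 0.0536% of rows called and 5.90% and 6.25% at that p. With both lines together, 4 of 45 members in mature and 4 of 22 in immature mTEC did so, with 0.0172% and 0.0317% of rows called and 4.41% and 7.48% at that p. The median standard error of a member was 0.28 to 0.32 on the log2 scale within a line and 0.17 with both lines together. Differences well under 2-fold could therefore not be resolved within a line, and larger ones could also go uncalled. Flg2 in immature mTEC of the Rbfox1 line was one (2.56, adjusted p = 0.305 by edgeR). For Lce genes the median was 0.51 to 0.52 in mature mTEC within a line. Simulated 2-fold changes reached an adjusted p under 0.05 in 64.9% of genes in the Rbfox2 comparison of mature mTEC. In that of immature mTEC the share was 63%. The data so made held 97 and 100 genes changed 2-fold, whereas 5 and 7 rows were called in the measured comparisons. Recovery was not tested for the members, so these shares do not show how often a member's change would be called.

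The members nearest to the threshold are named here after their values were seen. Sprr1a was 129.6 and 175 CPM in immature mTEC of Rbfox2 tKO mice and 69.5 and 105 CPM in their controls (0.86 ± 0.19, adjusted p = 0.171). The groups did not overlap, but in the Rbfox1 line Sprr1a was -0.09 ± 0.19. Flg2 was 12.1 and 35.0 CPM in immature mTEC of Rbfox1 tKO mice against 6.82 and 1.23 CPM (2.56 ± 0.60, adjusted p = 0.305, and adjusted p = 5.01e-09 at a fold change of 2.55 with no filter), and -0.32 ± 0.60 in the Rbfox2 line. Lce1a1 had 34, 20, 13 and 38 counts in mature tKO libraries against 14, 10, 14 and 8 in control ones, overlapping in the Rbfox2 line (1.24 ± 0.31, adjusted p = 0.481, and 1.23, adjusted p = 0.0185 with no filter). S100a8 was 0.09 ± 0.09 and S100a9 0.12 ± 0.08 in mature mTEC with both lines together, Tgm3 0.08 ± 0.10, Lor 0.06 ± 0.14 and Ivl 0.19 ± 0.17. For these, 2 standard errors around the difference held no change of 2-fold.

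**Figure D4:**
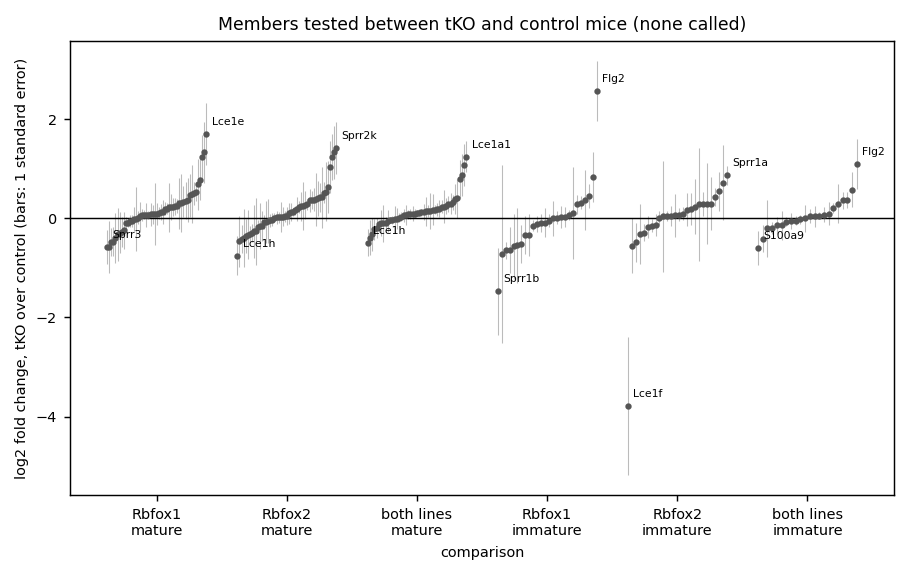
Log2 fold change of tKO over control for each member tested in 6 comparisons, sorted within each, with bars of 1 standard error and the lowest and highest member named. Most points lie close to 0, the widest values belong to genes with few counts such as Lce1f and Flg2, and no gene that passed the filter was called.

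Whether the difference between mature and immature mTEC itself differed between tKO and control mice was tested in all 16 libraries. None of 40 members tested reached an adjusted p under 0.05, as did 0% of all 16454 rows, and 4 members had an unadjusted p under 0.05. Sprr2f had the lowest p (3.73 ± 0.91, adjusted p = 1), and was called with no filter (3.76, adjusted p = 0.00636), as was Lce1a1. It had 7, 10, 1 and 11 counts in immature control libraries and 0, 0, 0 and 2 in immature tKO libraries, but 19, 29, 29 and 36 and 29, 28, 30 and 46 in mature ones. The immature groups overlapped in 1 library each. S100a9, with 0.72 ± 0.29, was the only one of the 4 with more than 5 counts in every library. That Sprr2f, Sprr2g and Sprr2h were called between populations in tKO and not in control mice was thus not a called difference under the filter, and with no filter was one for Sprr2f alone of the 3.

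Control mice of the 2 lines were compared because line may go with litter or handling. The labels give neither of these, and they cannot be told apart from line. No member was called at a fold change over 2 in either population, against 0.527% of rows in mature and 4.10% in immature mTEC. By the adjusted p alone, 2 of 49 members passed in mature mTEC (2.69% of rows) and 4 of 26 in immature mTEC (11.5% of rows). Cdsn was 19.4 and 17.96 CPM in mature mTEC of Rbfox1 line controls and 34.9 and 35.3 CPM in Rbfox2 line controls (-0.92 ± 0.18, adjusted p = 0.00836), and Lor moved the same way (-0.84 ± 0.20, adjusted p = 0.0303). In immature mTEC S100a14 was higher in the Rbfox1 line (0.79 ± 0.12, adjusted p = 5.52e-04), while S100a6 (-0.76 ± 0.13, adjusted p = 0.00142), S100a11 (-0.40 ± 0.10, adjusted p = 0.0156) and S100a10 (-0.42 ± 0.12, adjusted p = 0.0361) were lower. The S100a14 values were 254 and 265 CPM against 145 and 154 CPM, and the tKO mice of the lines were 241 and 216 CPM against 134 and 169 CPM, without overlap. Cell type markers also differed between the lines in immature mTEC. All 7 fibroblast genes were called lower in the Rbfox1 line, with a median log2 fold change of -2.17, as was Pecam1 of 5 endothelial genes, while Aire and Cd80 of 5 tested genes of mature mTEC were called higher. Their part in the S100a differences was not tested.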

How the data were processed

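RNA-seq was made by the authors from poly(A) RNA with a stranded paired-end protocol. Per the labels and the processing notes, reads were aligned with HISAT2 2.1.0 to mm10, duplicates were removed with Picard 2.10.9, libraries were down-sampled (immature ones to fewer reads) and deposited as raw counts per gene from featureCounts 1.6.0. Sources used here do not give the strand setting of the counting. The members, lists and tests were chosen with earlier results of these data known.

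From the deposited counts, edgeR 4.0.16 (R 4.3.3) fitted a quasi-likelihood model with TMM scaling and filterByExpr (minimum count 10) over all rows, separately for mature against immature mTEC in control and in tKO mice, tKO against control in each line and population and over both lines with line as a covariate, the interaction over 16 libraries, and the 2 lines in control mice. P-values were two-sided, and were adjusted by Benjamini-Hochberg over all rows tested. A row was called at an adjusted p under 0.05 and a fold change over 2 (the interaction by the adjusted p alone). CPM are counts per 1000000 of the library total scaled by TMM. Groups held 4 mice between populations, 2 within a line, and 4 over both lines. Genes named are all called members, the 10 highest per kb in control mice of each population, the 12 listed by name, S100a8 and S100a9, and up to 5 with large differences between mice; others were chosen after their values were seen. Total counts of 1506134 to 4636367 set the precision, and intervals and the floor of 3 counts cover counting error only. Each mouse was a separate animal, and replicate pairs differed beyond sampling noise (chi-square per degree of freedom 1.87 to 3.00). The mature and immature library of a mouse share the animal and deviated together (r of 0.277 to 0.421), so mouse was a block in an alternative fit. Alternatives were DESeq2 1.42.0, other scalings and filters, thinning, blocks and leaving out each library. On simulated data, 76.0% of 2-fold and 100% of 4-fold changes were recovered in the control comparison of populations. GENCODE M21 gave gene models and RefSeq (GRCm38.p6) promoters.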

Additional observations from a re-analysis of the deposited data

Results flagged for a closer look

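Within groups of 4 libraries, 1 library stood apart from the other 3 by Dixon's test in 14 of 162 tests of a member or family. The nominal rate of about 1 in 20 assumes continuous values. For Lce1h, S100a7a, Sprr2f and Sprr3 the other 3 libraries were at 0, which alone makes a library stand apart. The genes tested also included some chosen for differences between mice, so 14 of 162 cannot be set against that rate. Most of the 14 concerned immature libraries with few counts. In immature tKO libraries these were Lce1f with 5.50 CPM and the summed Lce genes with 22.5 CPM in Rbfox1 tKO 3, Lce1h with 0.446 and S100a7a with 1.79 CPM in Rbfox1 tKO 2, Sprr2f with 1.33 CPM in Rbfox2 tKO 2 and Sprr3 with 0.671 CPM in Rbfox2 tKO 1. In immature control libraries, Lce1h reached 1.08 CPM in Rbfox2 control 1, and Sprr2h reached 3.53 and Sprr2i 5.88 CPM in Rbfox2 control 2. The abundant genes among the 14 were S100a16 with 241 CPM in immature Rbfox2 control 2 (288 to 291 in the others), Rptn with 178.6 CPM in immature Rbfox2 tKO 2 (122 to 129), Tchh with 26.8 CPM in immature Rbfox2 tKO 1 (37.5 to 38.5), S100a6 with 114 CPM in mature Rbfox2 tKO 2 (83.9 to 86.3) and Crnn with 23.0 CPM in mature Rbfox1 tKO 3 (31.1 to 32.1).

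Among the named members tested in both lines, in 4 cases both tKO mice of one line lay above their 2 controls and both of the other line below. This difference was not tested. How many such cases chance would give with 2 mice a side was not worked out, nor was the share over all rows. The log2 fold change of tKO over control was 0.53 in the Rbfox1 and -0.30 in the Rbfox2 line for Cdsn, -0.49 and 0.42 for Lce3b and 0.36 and -0.36 for Sprr2g in mature mTEC, and -0.65 and 0.44 for Sprr2a1 in immature mTEC.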

How the results depend on the processing

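Of 181 alternative values of the 11 counts of called members, 158 stayed within 1.5 times the main count. Between populations, 32 members were called in control mice with no filter on low counts, 5 with a minimum of 10 counts per library and 12 after thinning, against 19. In tKO mice the counts were 40 with no filter and 6 with that minimum, against 24; fewer genes are tested under the stricter rule. With mouse as a block 25 and 26 members were called, and leaving out single libraries gave 17 to 24 in control and 20 to 28 in tKO mice. Between tKO and control, no filter gave 2 members in the Rbfox1 and 3 in the Rbfox2 comparison of immature mTEC, 1 in mature and 2 in immature mTEC over both lines, and 2 in the interaction, namely Flg2, Sprr2f, Lce1a1, Lce1c and Lce1f in one or more of these; the cause was not tested. A block on replicate number called 0 members in the comparisons of tKO with control; same-numbered mice of a line had r of 0.0817 to 0.294 and were not treated as pairs. Between lines, the adjusted p alone gave 2 members in mature and 4 in immature mTEC, no filter 6 and the fit of all 16 libraries 2 in immature mTEC, and leaving out single libraries 0 to 1 in mature and 1 to 4 in immature mTEC, against 0.

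Of 1225 alternative values of 85 fold changes of single members, 1188 kept direction and side of the threshold, 21 passed it, 10 lost it and 6 changed sign. The 6 were Cdsn in control mice (0.033 without Rbfox2 control immature 2, and -0.47 to 0.033 over all single libraries left out), Cdsn in tKO mice (0.060 with a minimum of 10 counts, 0.033 without Rbfox1 tKO mature 3, and -0.35 to 0.15 over single libraries left out) and Hrnr in tKO mice (0.014 with a minimum of 10 counts, and -0.38 to 0.32 over single libraries left out), none of them called. Depth limits the Lce genes most, each of which had 0 counts in 2 to 8 of the 8 immature libraries, and Sprr2b, Sprr2d, Sprr2f, Sprr2g and Sprr2k, with 0 counts in 3 to 8.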
